A study of Mus musculus with 12 samples.

Results

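Sterol and fatty acid synthesis genes were followed across 4 genotypes of mouse embryonic fibroblasts, connective tissue cells grown from embryos. The list held 34 genes, named by symbol and matched to the Ensembl identifiers of the count tables, out of 37991 identifiers in all. It comprised 6 enzymes of the mevalonate pathway, 11 enzymes that carry squalene to cholesterol, 6 regulators and transport proteins, and 11 genes of fatty acid and lipid synthesis. All 34 were found and all 34 passed the filter on low counts, the lowest being Idi1 with at least 97 counts in every library.

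RNA was counted in 12 libraries, 3 per group. The groups were labelled Gadd45a-/-;Ing1-/- double mutant (DKO), Ing1 single mutant (Ing1 KO), Gadd45a single mutant (Gadd45a KO) and wild type (WT). All 4 came from male embryos at E15.5 of strain C57BL/6N, from crosses between an Ing1-deficient and a Gadd45a-deficient mouse line, and the cells were harvested at passage 4 and 80% confluency. No label ties a library to an embryo or a culture, so each p-value measures the spread between libraries, which may be technical.

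ING1 is a chromatin protein that reads methylated histone tails and belongs to histone deacetylase complexes, and GADD45A is a stress-induced protein that takes part in DNA repair and demethylation. Cells build cholesterol from acetyl-CoA through mevalonate, the isoprenoid units and squalene, and they build fatty acids from the same acetyl-CoA by carboxylation, chain growth and desaturation. Both routes are switched on by the SREBP transcription factors, which SCAP carries out of the endoplasmic reticulum when sterols are low and INSIG1 holds back when sterols are high. SREBPs bind DNA beside the general factors NF-Y and Sp1, whose target letters are the CCAAT box and the GC box. ABCA1, a pump that moves cholesterol out of the cell, is switched on by the LXR receptors, which sense oxysterols when sterols are high.

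Since the genes share these regulators, the 250 bases before each start site were read from RefSeq promoter entries (GRCm38.p6). Of the 34 genes, 27 had an entry, with 34 start sites in all, and Sqle, Fdps, Fdft1, Stard4, Scd1, Scd2 and Fads1 had none. The CCAAT box (CCAAT or its reverse, ATTGG) was present in 20 of the 34 windows, 58.8%, against 33.8% of the 32851 mouse windows of the same length. The GC box (GGGCGG or CCGCCC) was present in 24, 70.6%, against 32.7%. The E-box CACGTG was present in 6, 17.6%, against 6.02%. The sterol regulatory element core TCACNCCAC, searched with its reverse GTGGNGTGA, was present in none of the 34 windows, against 1.05% of all windows. Some genes had more than 1 window, and those of Scap overlap, so the windows are not independent. Counted by gene, 19 of the 27 held a CCAAT box, 22 a GC box and 6 an E-box. The 32851 windows were taken whatever the counts of their genes here, while all 34 list genes passed the filter on low counts. The shares are thus not matched for expression, and the differences cannot be tied to these pathways. These counts describe letters in a window and do not show that a factor binds. The search took exact letters in 250 bases only, and the genes without an entry were not searched. Sites with other letters or farther away were not counted, so these genes may still hold a sterol regulatory element. The windows of 4 genes are printed 5′ to 3′ with each CCAAT or ATTGG in capitals. Mvk held 5 boxes, the highest number among the 27 genes. Msmo1 and Fasn had 3 matches each and stand for the later sterol steps and the fatty acid arm. In Fasn a CCAAT and an ATTGG overlap as CCAATTGG, so its matches are not 3 separate boxes. Abca1, the member with lower counts in Ing1 KO, held none.
Mvk, chr5:114444019-114444268, plus strand: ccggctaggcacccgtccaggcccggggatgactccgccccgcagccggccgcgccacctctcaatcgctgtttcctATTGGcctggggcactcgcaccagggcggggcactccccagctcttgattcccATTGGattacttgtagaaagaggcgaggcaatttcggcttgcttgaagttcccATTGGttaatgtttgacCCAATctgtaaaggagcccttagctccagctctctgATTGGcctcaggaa
Msmo1, chr8:64733579-64733828, minus strand: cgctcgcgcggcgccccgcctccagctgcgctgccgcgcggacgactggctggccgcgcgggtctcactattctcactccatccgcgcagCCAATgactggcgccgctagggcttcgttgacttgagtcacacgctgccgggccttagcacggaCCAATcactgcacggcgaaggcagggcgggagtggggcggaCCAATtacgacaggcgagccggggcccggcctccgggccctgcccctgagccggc
Fasn, chr11:120824548-120824797, minus strand: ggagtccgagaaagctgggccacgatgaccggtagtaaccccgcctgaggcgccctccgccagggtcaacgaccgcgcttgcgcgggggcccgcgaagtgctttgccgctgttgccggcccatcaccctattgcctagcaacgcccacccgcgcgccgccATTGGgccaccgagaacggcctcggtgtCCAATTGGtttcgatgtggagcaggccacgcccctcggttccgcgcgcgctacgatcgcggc
Abca1, chr4:53159896-53160145, minus strand: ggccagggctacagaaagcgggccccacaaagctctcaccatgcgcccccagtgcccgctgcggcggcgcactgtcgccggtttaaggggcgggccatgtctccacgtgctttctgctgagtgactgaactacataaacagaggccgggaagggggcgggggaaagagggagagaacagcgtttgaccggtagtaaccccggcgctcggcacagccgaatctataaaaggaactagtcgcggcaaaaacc
Of the 4 genes printed, the 3 with CCAAT boxes had higher counts in Ing1 KO than in WT, and Hsd17b7, with 3 boxes too, did as well. Acly, Elovl6 and Fads2, with no box in the window, were also higher in Ing1 KO. Idi1, Ebp and Dhcr7, with 2 boxes in a window, and Acss2, with 1, were not called in Ing1 KO relative to WT. The printed genes were chosen by box number or by direction, so they cannot show a link between boxes and counts.

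Library totals ran from 31493168 to 42852059 gene counts. Levels are given as CPM, a gene's count relative to the library total scaled by the trimmed mean of M values (TMM). Ing1 itself had 1.29, 0.916 and 1.14 CPM in the DKO and 1.01, 1.23 and 1.42 CPM in Ing1 KO, against 49.7, 54.5 and 52.2 CPM in Gadd45a KO and 52.1, 50.4 and 54.4 CPM in WT. Gadd45a did not follow its label: it had 132, 119.9 and 127 CPM in the DKO, 75.9, 118 and 106 CPM in Gadd45a KO and 18.0, 20.5 and 16.7 CPM in Ing1 KO, against 20.9, 21.1 and 21.3 CPM in WT. No source used here gives the deleted part of the gene, and the counts cannot show whether an intact protein is made, so both groups are written as the labelled DKO and the labelled Gadd45a KO. Fibroblast markers (7 genes) summed to 48087 to 63513 CPM over the 12 libraries. Of the 7 fat cell markers, 2 to 5 were at 0 in a library and the sum stayed between 4.53 and 11.5 CPM. The 4 epithelial markers summed to 0.997 to 4.46 CPM. Markers of macrophages set the labelled DKO apart: 12 genes summed to 1773 to 2237 CPM there, against 274 to 468 CPM in Ing1 KO, 105 to 420.3 CPM in the labelled Gadd45a KO and 203 to 351 CPM in WT. In this bulk RNA, more cells of a type and more RNA per cell cannot be told apart.

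The 34 genes took a larger share of the library in Ing1 KO than in any other group. They held 0.337% to 0.362% of gene counts in the labelled DKO, 0.379% to 0.406% in Ing1 KO, 0.329% to 0.337% in the labelled Gadd45a KO and 0.297% to 0.324% in WT. The Ing1 KO mean was the highest of the 4 group means for 28 of the 34 genes, 15 of the 17 sterol enzymes and 9 of the 11 fatty acid genes. The WT mean was the lowest for 23 of the 34.

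**Figure D1:**
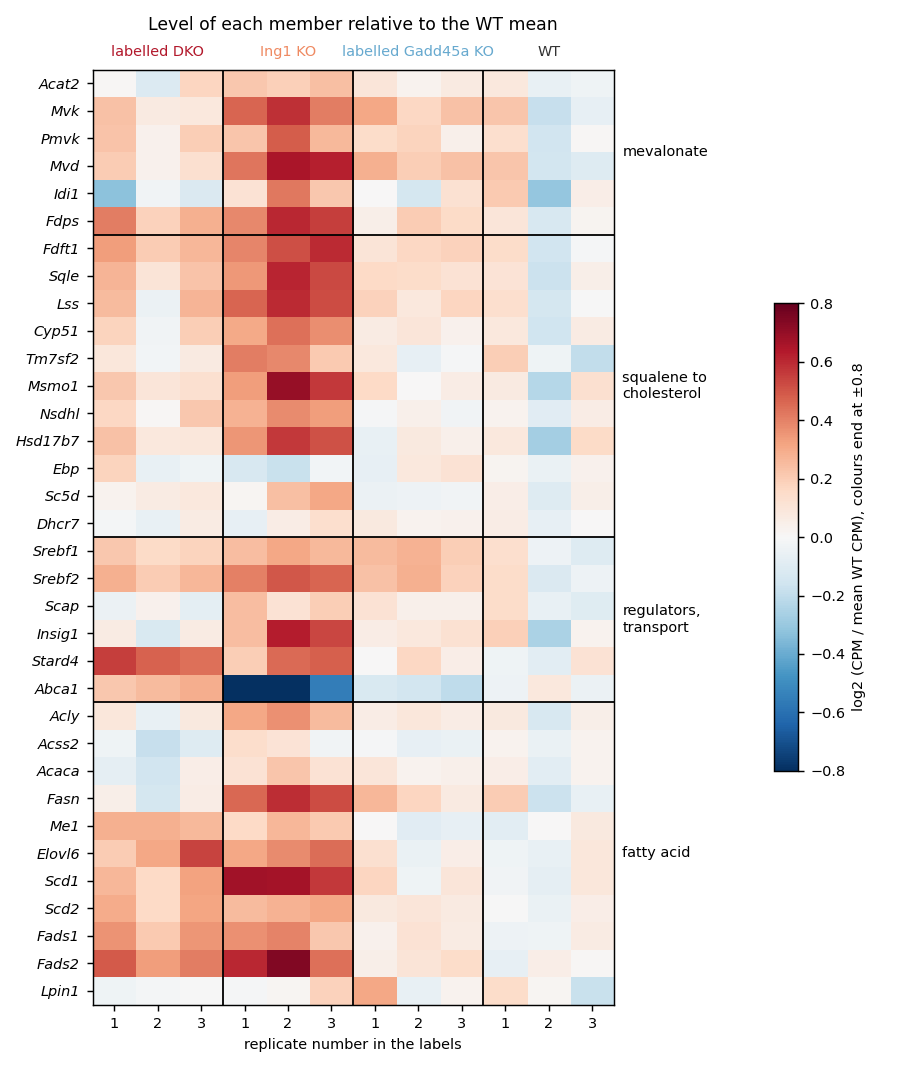
Level of each of the 34 genes in each of the 12 libraries, as log2 of its CPM over the WT mean, with colours ending at 0.8 in either direction; the columns are the labelled DKO, Ing1 KO, the labelled Gadd45a KO and WT, and the lines divide the genes by role. The 3 Ing1 KO columns are red for most sterol and fatty acid genes and dark blue for Abca1, while WT replicate 2 and DKO replicate 2 are the lowest of their groups for 26 genes each.

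Loss of Ing1 alone came with higher counts along nearly the whole pathway. Of the 34 genes, 27 rose in Ing1 KO relative to WT and 1, Abca1, fell (edgeR quasi-likelihood test, Benjamini-Hochberg adjusted p under 0.05 over 15098 genes). Of all genes tested, 23.5% were called in this comparison, 12.1% higher and 11.4% lower. The median log2 fold change of the 34 genes was 0.33, against 0.00 for all genes tested. The changes were small for single genes, 1.14-fold to 1.56-fold for those that rose relative to WT. For 26 of the 34 genes all 3 Ing1 KO libraries lay above all 3 WT libraries, as for 18.5% of all genes tested. For 1 gene, Abca1, all 3 lay below, as for 18.8% of all genes.

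In the mevalonate pathway 5 of 6 enzymes rose in Ing1 KO. Mvd (ENSMUSG00000006517, chromosome 8), the decarboxylase that makes the isoprenoid unit isopentenyl diphosphate, had 29.7, 34.6 and 33.9 CPM in Ing1 KO, against 25.7, 19.9 and 20.5 CPM in WT. Every Ing1 KO library lay above every WT library, and the difference was 1.49-fold (edgeR log2 fold change 0.57 ± 0.09 (SE), adjusted p = 0.000989). Fdps, which joins isoprenoid units to farnesyl diphosphate, had 52.0, 60.4 and 58.2 CPM in Ing1 KO, against 42.5, 36.5 and 40.4 CPM in WT. The groups did not overlap, and the log2 fold change was 0.52 ± 0.07 (SE; edgeR adjusted p = 0.000605). Mvk, mevalonate kinase, had 35.5, 38.6 and 34.1 CPM in Ing1 KO, against 29.9, 22.7 and 24.5 CPM in WT. The highest WT value, that of replicate 1, came closest to the Ing1 KO values, and the log2 fold change was 0.49 ± 0.09 (SE; edgeR adjusted p = 0.00254). Pmvk, the next kinase, and Acat2, the thiolase of the first step, rose less (0.33 and 0.21 on the log2 scale). Pmvk lost its call without WT replicate 2 or Ing1 KO replicate 2 or with only the groups compared in the fit, and Acat2 without any 1 of 5 libraries (WT replicates 2 and 3, Ing1 KO replicates 1, 2 and 3), with edgeR adjusted p up to 0.0992 for Pmvk and 0.112 for Acat2. Idi1, the isomerase, averaged 4.19 ± 0.459 CPM in Ing1 KO and 3.51 ± 0.621 CPM in WT (SD, n = 3 each) and was not called (edgeR adjusted p = 0.239). Acat2 has the near-identical copy Acat3 and Idi1 the copy Idi2, and reads that fit both copies were counted to neither.

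Between squalene and cholesterol 9 of 11 enzymes rose in Ing1 KO. Sqle (ENSMUSG00000022351, chromosome 15), squalene epoxidase and a rate-limiting step, had 120.5, 145 and 137 CPM in Ing1 KO, against 102, 84.1 and 97.7 CPM in WT. Replicate 1 was the lowest Ing1 KO library and still lay above all 3 WT libraries, with a 1.42-fold difference (edgeR log2 fold change 0.50 ± 0.08 (SE), adjusted p = 0.00095). Fdft1, squalene synthase, had 68.1, 74.3 and 78.4 CPM in Ing1 KO, against 57.4, 46.7 and 51.6 CPM in WT. All Ing1 KO values were higher (log2 fold change 0.50 ± 0.07, SE; edgeR adjusted p = 0.000513). Msmo1, a methylsterol oxidase, had 89.6, 115 and 105 CPM in Ing1 KO, against 74.7, 60.7 and 77.7 CPM in WT. Ing1 KO replicate 1 came nearest to WT and the groups did not overlap (log2 fold change 0.54 ± 0.10, SE; edgeR adjusted p = 0.00353). Lss, which folds squalene epoxide into lanosterol, and Hsd17b7, a sterol ketone reductase, rose by 0.53 and 0.48 on the log2 scale. Cyp51, the lanosterol demethylase, and Nsdhl, the next dehydrogenase, rose by 0.37 and 0.33. Tm7sf2, a sterol reductase, and Sc5d, a desaturase, rose by 0.33 and 0.20. Tm7sf2 lost its call without WT replicates 2 or 3 or Ing1 KO replicates 1 or 2 (edgeR adjusted p up to 0.119), and Sc5d without any 1 of the WT replicates or Ing1 KO replicates 2 or 3 (up to 0.185). With only the groups compared in the fit both lost the call, and with the replicate number as a block Sc5d did. The last steps stood apart from the rest. Ebp, the sterol isomerase, averaged 20.8 ± 1.15 CPM in Ing1 KO and 22.4 ± 0.705 CPM in WT, and Dhcr7, the final reductase, 31.6 ± 2.22 CPM in Ing1 KO and 30.6 ± 1.33 CPM in WT (SD, n = 3 each). Neither was called (edgeR adjusted p = 0.321 for Ebp and 0.606 for Dhcr7). Exons of Fdft1 overlap those of Ctsb, and exons of Cyp51 those of Akap9, on the other strand, and exons of Tm7sf2 overlap Vps51, so reads of these pairs are in part shared or uncounted.

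Of the 6 regulators and transport proteins 5 rose in Ing1 KO and 1 fell. Srebf2 (ENSMUSG00000022463, chromosome 15), the SREBP that mainly drives sterol genes, had 226, 241 and 236 CPM in Ing1 KO, against 189, 158 and 166 CPM in WT. The groups were well separated, and the log2 fold change was 0.46 ± 0.06 (SE; edgeR adjusted p = 0.000318). Srebf1, the SREBP that mainly drives fatty acid genes, rose by 0.27 ± 0.05 (SE, log2 scale), and its exons overlap those of Rai1 on the other strand. Insig1 (ENSMUSG00000045294, chromosome 5), itself a target of the SREBPs, had 51.1, 66.6 and 62.5 CPM in Ing1 KO, against 49.2, 36.2 and 43.8 CPM in WT. Replicate 1 of both groups came close to the other group, and the call (edgeR log2 fold change 0.48 ± 0.11 (SE), adjusted p = 0.0119) was lost without Ing1 KO replicate 2 or with only the 2 groups in the fit (adjusted p up to 0.0594). Scap rose by 0.19 with overlapping libraries, and the call was lost without any 1 of 5 libraries (WT replicates 2 and 3 and each Ing1 KO replicate) or with only the groups compared in the fit (adjusted p up to 0.157). Stard4, a carrier that moves cholesterol between membranes, rose to 33.5, 40.0 and 40.7 CPM in Ing1 KO, against 28.6, 27.5 and 31.6 CPM in WT (log2 fold change 0.38 ± 0.08, SE; edgeR adjusted p = 0.00383). Abca1 (ENSMUSG00000015243, chromosome 4) went the other way, with 46.9, 40.6 and 57.8 CPM in Ing1 KO, against 82.3, 90.0 and 82.0 CPM in WT. Every Ing1 KO library lay below every WT library, and the log2 fold change was -0.81 ± 0.10 (SE; edgeR adjusted p = 0.000371).

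In the fatty acid arm 8 of 11 genes rose in Ing1 KO. Scd1 (ENSMUSG00000037071, chromosome 19), the desaturase that makes monounsaturated fatty acids, had 176, 175 and 164 CPM in Ing1 KO, against 108, 105 and 118 CPM in WT. This was the largest rise among the 34 genes, 1.56-fold (edgeR log2 fold change 0.64 ± 0.06 (SE), adjusted p = 8.34e-05). Fads2 (ENSMUSG00000024665, chromosome 19), the first desaturase of polyunsaturated fatty acids, had 64.6, 71.1 and 57.8 CPM in Ing1 KO, against 40.6, 44.2 and 42.8 CPM in WT. The groups did not overlap (edgeR log2 fold change 0.60 ± 0.07 (SE), adjusted p = 0.000162). Fasn (ENSMUSG00000025153, chromosome 11), fatty acid synthase, had 219, 240.4 and 229 CPM in Ing1 KO, against 184, 142 and 154 CPM in WT. WT replicate 1 was the highest of its group and lay below all Ing1 KO libraries (edgeR log2 fold change 0.52 ± 0.09 (SE), adjusted p = 0.00202). Elovl6, which lengthens fatty acids, Fads1, the second polyunsaturated desaturase, and Acly, which supplies acetyl-CoA from citrate, rose by 0.38, 0.33 and 0.31 on the log2 scale. Scd2, a related desaturase, and Me1, which makes NADPH, rose by 0.28 and 0.21. Acaca, acetyl-CoA carboxylase, was higher in all 3 Ing1 KO libraries and missed the threshold (log2 fold change 0.15, edgeR adjusted p = 0.0614). Acss2, which activates acetate and overlaps Ggt7 and Gss on the other strand, and Lpin1, a phosphatidate phosphatase, had log2 fold changes of 0.08 and 0.07 and were not called. Scd1 and Scd2 are similar to each other and to Scd3 and Scd4, so their split is uncertain.

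None of the 12 macrophage markers was called in Ing1 KO relative to WT, and of the 8 cell cycle genes Plk1 was called higher (list summed 439 to 467 CPM in Ing1 KO, against 380.1 to 488 CPM in WT). Of the 7 fibroblast markers Thy1 and Vim rose and Col3a1 and Pdgfra fell (log2 fold changes 0.32, 0.36, -0.49 and -0.80). Of the 2 fat cell markers tested Pparg fell (log2 fold change -0.58, edgeR adjusted p = 0.0263) and Fabp4 was not called. These marker genes were named after their values were seen.

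**Figure D2:**
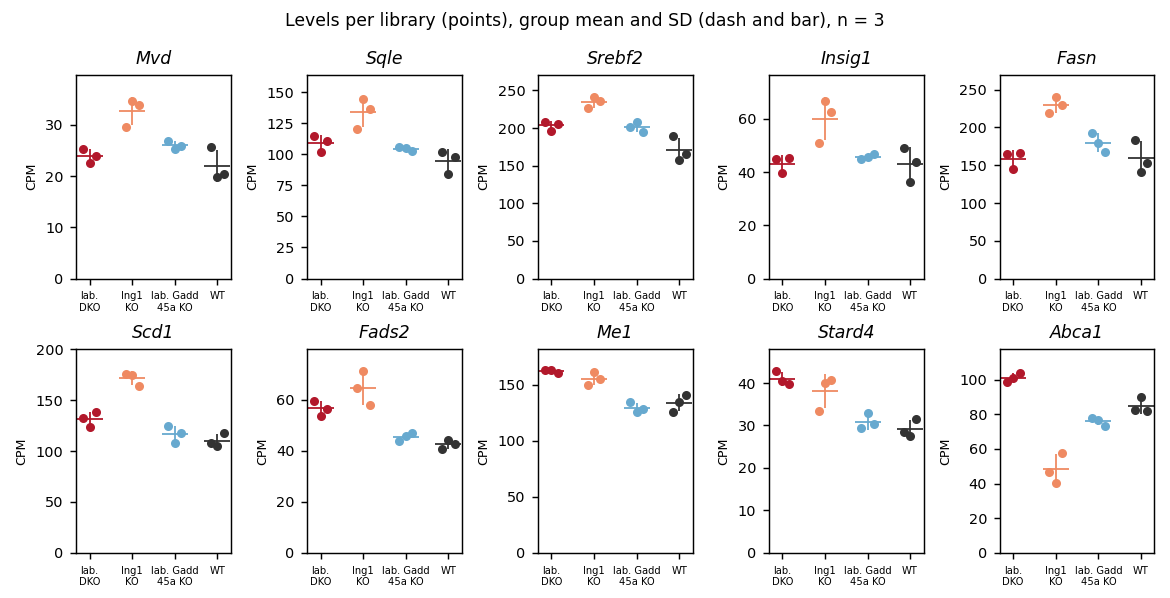
CPM of 10 of the 34 genes in each library (points), with the group mean (dash) and SD (bar, n = 3); lab. stands for labelled, and each axis starts at 0. For Mvd, Sqle, Srebf2, Fasn and Scd1 the 3 Ing1 KO points lie above all others, for Me1, Stard4 and Fads2 the labelled DKO points lie above WT too, and for Abca1 the Ing1 KO points are the lowest.

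In the labelled Gadd45a KO no member was called relative to WT. The share called of all genes was 0.00662%, a single gene, which was Gadd45a itself. The 34 genes had a median log2 fold change of 0.07, against 0.00 for all genes. Of the 34, 30 lay above 0, against 7712 of the 15098 genes tested. In edgeR 4 of the 34 had an unadjusted p under 0.05, near the share of all genes, 1331 of 15098. The libraries of both groups did not overlap for 4 genes that were higher and 1 that was lower in the labelled Gadd45a KO, where 7.71% and 6.97% of all genes did not. Srebf2 had 201, 208 and 195 CPM in the labelled Gadd45a KO, against 189, 158 and 166 CPM in WT. Srebf1 had 91.8, 93.6 and 88.5 CPM in the labelled Gadd45a KO, against 84.6, 75.0 and 71.8 CPM in WT. For both genes the groups did not overlap, with a log2 fold change of 0.24 ± 0.06 for Srebf2 and 0.24 ± 0.05 for Srebf1 (SE) and an edgeR adjusted p of 0.423 for either. Mvd and Mvk, the other genes with an unadjusted p under 0.05, had log2 fold changes of 0.24 and 0.24 with overlapping libraries. Without WT replicate 1 edgeR called 2 members, Srebf1 and Srebf2, and DESeq2 called Srebf1 with all libraries. Abca1 averaged 76.0 ± 2.25 CPM in the labelled Gadd45a KO and 84.8 ± 4.54 CPM in WT (SD, n = 3 each).

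In the labelled DKO desaturases, the elongase Elovl6, Me1 and Stard4 were higher than in WT, along with both SREBP genes and few sterol enzymes. Of the 34 genes 11 rose and none fell, where 25.9% of all genes were called, 15.6% higher and 10.3% lower. The median log2 fold change of the 34 was 0.14, against 0.01 for all genes tested. All 3 labelled DKO libraries lay above all 3 WT libraries for 12 genes, as for 22.8% of all genes. The number called, 11 of 34, was near the share of all genes called either way, though all 11 were higher. In the fatty acid arm 6 of 11 rose: Fads2, Elovl6, Fads1, Me1, Scd2 and Scd1. Fads2 had 59.7, 53.7 and 56.4 CPM in the labelled DKO, against 40.6, 44.2 and 42.8 CPM in WT. The groups did not overlap (edgeR log2 fold change 0.41 ± 0.07 (SE), adjusted p = 0.000992). Me1 had 163, 163 and 160.3 CPM in the labelled DKO, against 126, 134 and 141 CPM in WT. Its DKO values lay within a narrow band above all WT values (edgeR log2 fold change 0.28 ± 0.05 (SE), adjusted p = 0.00112). Elovl6 and Fads1 rose by 0.36 and 0.31, and Scd2 and Scd1 by 0.26 and 0.25, on the log2 scale. Fasn, in contrast, averaged 159 ± 12.0 CPM in the labelled DKO and 159.7 ± 21.8 CPM in WT (SD, n = 3 each; log2 fold change -0.01, not called). Acly, Acaca, Acss2 and Lpin1 were not called either, with log2 fold changes between -0.11 and 0.04.

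Of the 17 sterol enzymes only Fdps and Fdft1 rose in the labelled DKO, by 0.30 ± 0.08 and 0.27 ± 0.07 (SE, log2 scale), and both calls rested on 2 libraries. Without DKO replicate 1 or without WT replicate 2 none of the 17 was called, while without DKO replicate 2 the number was 4 and without WT replicate 1 it was 5. Sqle had 114, 102 and 111 CPM in the labelled DKO, against 102, 84.1 and 97.7 CPM in WT. Its libraries overlapped by a small margin, between DKO replicate 2 and WT replicate 1 (edgeR log2 fold change 0.21 ± 0.08 (SE), adjusted p = 0.0677). Srebf2 rose by 0.25 and kept its call under every setting run, and Srebf1 rose by 0.18 and lost its call without DKO replicates 1 or 3 or WT replicates 2 or 3 (adjusted p up to 0.1). Stard4 (ENSMUSG00000024378, chromosome 18) had 42.9, 40.6 and 39.7 CPM in the labelled DKO, against 28.6, 27.5 and 31.6 CPM in WT. It was the member with the largest difference in this comparison, 1.4-fold (edgeR log2 fold change 0.49 ± 0.08 (SE), adjusted p = 7e-04). Abca1 had 98.6, 101 and 104 CPM in the labelled DKO, above all 3 WT libraries, and missed the threshold (log2 fold change 0.25, edgeR adjusted p = 0.0745). Insig1 and Scap were not called (0.01 and -0.03). All 12 macrophage markers rose in the labelled DKO relative to WT (median log2 fold change 2.59), and so did all 8 cell cycle genes (median 0.54; summed 629 to 652 CPM in the labelled DKO, against 380.1 to 488 CPM in WT). Of the fat cell and epithelial markers tested, Pparg fell (log2 fold change -0.78, edgeR adjusted p = 0.00523) and Cdh1 rose (2.54, adjusted p = 0.00596). Fabp4 and Krt18 were not called, and these genes too were named after their values were seen. The part of all these markers in the changes of the labelled DKO, here and in the comparisons that follow, was not tested.

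**Figure D3:**
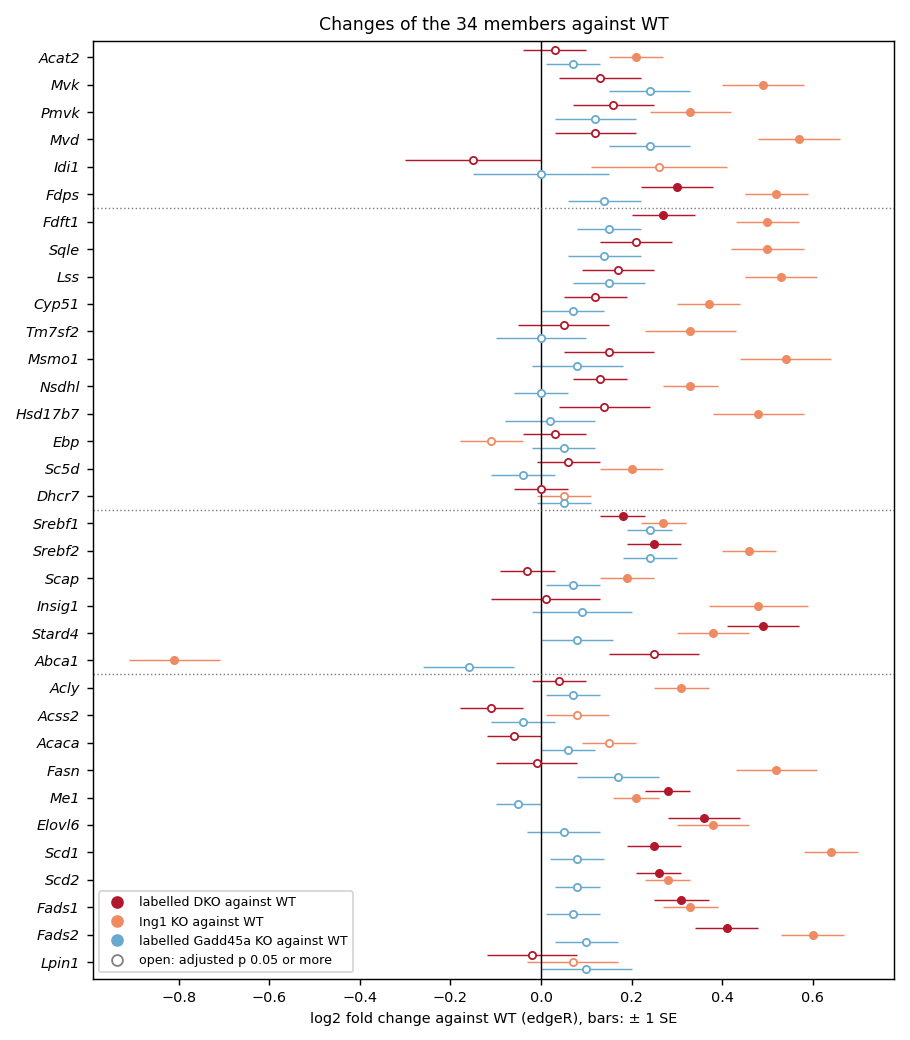
Log2 fold change (points) and SE (bars) of each of the 34 genes against WT in the labelled DKO, Ing1 KO and the labelled Gadd45a KO, from edgeR, with open points for an adjusted p of 0.05 or more. Most Ing1 KO points lie right of the labelled DKO points for sterol enzymes, the points of Me1, Scd2 and Fads1 lie side by side in both groups, and Abca1 lies far left only in Ing1 KO.

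Set directly against Ing1 KO, the labelled DKO had lower counts of sterol enzymes and of Fasn and Scd1. Of the 34 genes 17 fell and 1, Abca1, rose, where 24.8% of all genes were called, 14.9% higher and 9.88% lower. The median log2 fold change of the 34 was -0.21, against 0.01 for all genes. All 3 labelled DKO libraries lay below all 3 Ing1 KO libraries for 21 genes, as for 16.5% of all genes, and above them for 1, as for 22.6%. Of the 17 sterol enzymes 10 fell. Mvd had 25.3, 22.5 and 24.0 CPM in the labelled DKO, against 29.7, 34.6 and 33.9 CPM in Ing1 KO. The groups did not overlap (edgeR log2 fold change -0.45 ± 0.09 (SE), adjusted p = 0.00345). Fasn had 165, 145 and 166 CPM in the labelled DKO, against 219, 240.4 and 229 CPM in Ing1 KO. Its log2 fold change was -0.53 ± 0.09 (SE; edgeR adjusted p = 0.0017), and its labelled DKO values lay within the range of the WT values. Scd1 had 133, 123 and 138 CPM in the labelled DKO, against 176, 175 and 164 CPM in Ing1 KO, a fall of 1.31-fold (edgeR log2 fold change -0.39 ± 0.06 (SE), adjusted p = 0.000989). Insig1, Msmo1, Mvk and Lss fell too, with log2 fold changes of -0.47, -0.40, -0.36 and -0.36. Abca1 had 98.6, 101 and 104 CPM in the labelled DKO, against 46.9, 40.6 and 57.8 CPM in Ing1 KO. It was 2.09-fold higher in the labelled DKO (edgeR log2 fold change 1.06 ± 0.10 (SE), adjusted p = 9.26e-05). Fads1, Scd2, Elovl6, Me1 and Stard4 had log2 fold changes between -0.02 and 0.11 and were not called.

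This count depended on 2 libraries. Without DKO replicate 2 it was 7, and without Ing1 KO replicate 2 it was 7 too, with 2 sterol enzymes in either case. Ing1 KO replicate 2 had the highest value of its group for 20 of the 34 genes and DKO replicate 2 the lowest of its group for 26. Mvd, Lss, Acly, Fasn, Scd1 and Abca1 kept their calls under every setting run. The macrophage markers (12 of 12 higher, median log2 fold change 2.28) and the cell cycle genes (7 of 8 higher, median 0.47) moved in this comparison as well.

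**Figure D4:**
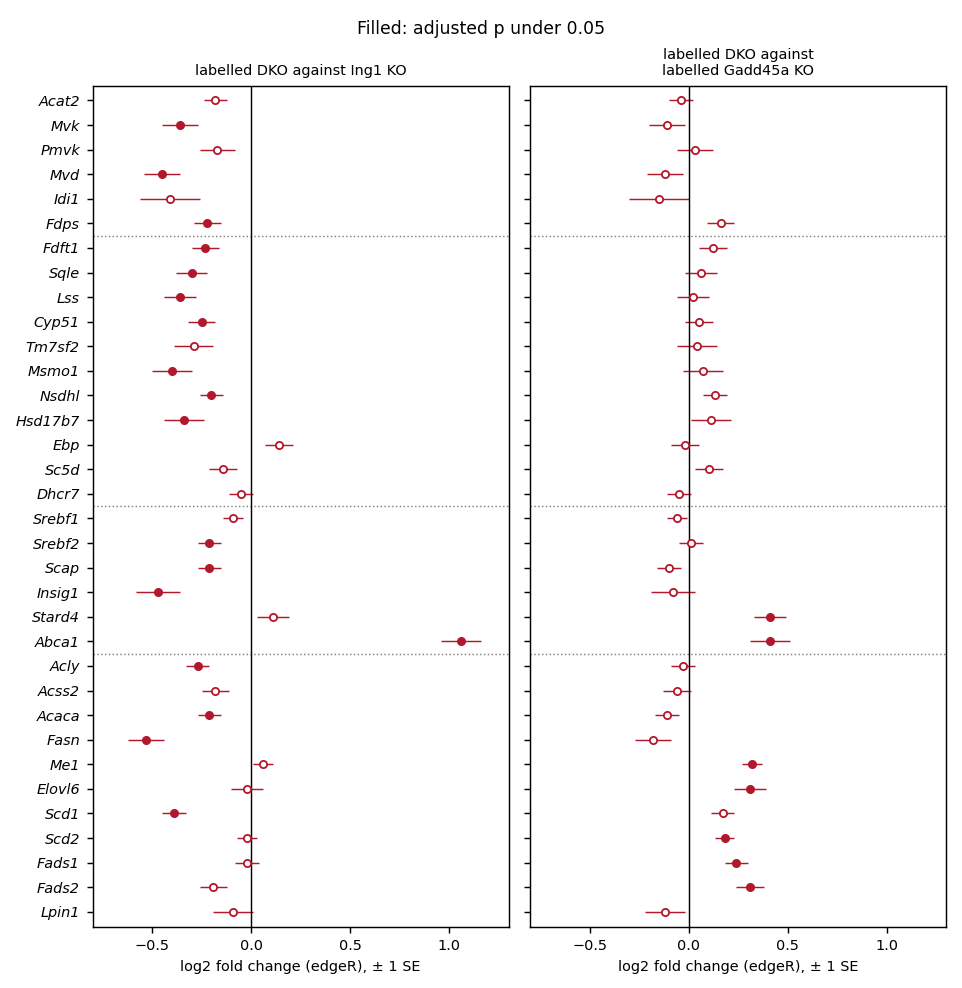
Log2 fold change (points) and SE (bars) of each of the 34 genes in the labelled DKO against Ing1 KO (left) and against the labelled Gadd45a KO (right), from edgeR, with filled points for an adjusted p under 0.05. Against Ing1 KO the sterol enzymes lie left of 0 but for Ebp, and against the labelled Gadd45a KO none of them is filled while Stard4, Abca1, Me1, Elovl6, Scd2, Fads1 and Fads2 lie right of 0.

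Against the labelled Gadd45a KO, the labelled DKO had higher counts of 7 members and lower counts of none, where 26.4% of all genes were called, 15.8% higher and 10.6% lower. The median log2 fold change of the 34 was 0.04, against 0.00 for all genes. All 3 labelled DKO libraries lay above all 3 labelled Gadd45a KO libraries for 10 genes, as for 24.6% of all genes, and below them for 2, as for 21.1%. The 7 calls and the 10 genes lying above were near the shares of all genes, and nothing is read from either count about the list. No sterol enzyme was called by edgeR or by DESeq2. In edgeR 1 of the 17, Nsdhl, had an unadjusted p under 0.05 (log2 fold change 0.13), against 5730 of all 15098 genes. Without DKO replicate 2 edgeR called 1 of the 17. Stard4 had 42.9, 40.6 and 39.7 CPM in the labelled DKO, against 29.3, 32.8 and 30.3 CPM in the labelled Gadd45a KO. Me1 had 163, 163 and 160.3 CPM in the labelled DKO, against 134, 126 and 128 CPM in the labelled Gadd45a KO. Abca1 had 98.6, 101 and 104 CPM in the labelled DKO, against 78.0, 76.5 and 73.6 CPM in the labelled Gadd45a KO. The groups did not overlap for any of these 3 genes, with edgeR log2 fold changes of 0.41 ± 0.08 for Stard4, 0.32 ± 0.05 for Me1 and 0.41 ± 0.10 for Abca1 (SE; adjusted p = 0.0018, 0.000401 and 0.00865). Fads2, Elovl6, Fads1 and Scd2 rose by 0.31, 0.31, 0.24 and 0.18. Elovl6 lost its call without the labelled Gadd45a KO replicate 2 (adjusted p = 0.0549), and Scd2 without the labelled Gadd45a KO replicate 3 or DKO replicates 1 or 3 (adjusted p up to 0.0702). Fasn had log2 fold change -0.18 and Scd1 0.17, and neither was called. Macrophage markers (12 of 12 higher, median 2.48) and cell cycle genes (8 of 8 higher, median 0.65) moved here too. The comparisons of the labelled DKO share its 3 libraries, and those against WT share the WT libraries, so their values are given side by side and are not independent.

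Whether the effect of Ing1 loss differed between the Gadd45a backgrounds was tested as an interaction, the log2 change of the labelled DKO against the labelled Gadd45a KO minus that of Ing1 KO against WT. Of the 34 genes 17 were called, 16 below 0 and Abca1 above 0, where 17.8% of all genes were called, 7.4% below and 10.4% above 0. The median interaction of the 34 was -0.29, against 0.01 for all genes. The largest was that of Abca1, 1.22 ± 0.14 (SE; edgeR adjusted p = 0.000914), which was lower in Ing1 KO than in WT and higher in the labelled DKO than in the labelled Gadd45a KO. Fasn followed with -0.71 ± 0.13 and Mvd with -0.69 ± 0.13 (SE; edgeR adjusted p = 0.00551 and 0.0053). Of the sterol enzymes 8 of 17 were called. In the fatty acid arm Fasn, Scd1, Acly and Acaca were called, whereas Scd2, Fads1, Elovl6 and Me1 had interactions between -0.10 and 0.11 and were not. Fads2 had -0.29, below the -0.27 of Acaca, and was called by DESeq2 (adjusted p = 0.0424) but not by edgeR (adjusted p = 0.0543). Lpin1 and Acss2 had -0.18 and -0.14 and were not called, so the values form no clear split. The number called was 10 without WT replicate 2, and 11 without WT replicate 3, the labelled Gadd45a KO replicate 3, Ing1 KO replicate 2 or DKO replicate 2. Of the 12 macrophage markers 7 were called above 0 by edgeR and 12 by DESeq2 (median 2.23), as were 7 of the 8 cell cycle genes by either tool (median 0.61), and the part of these cells or of cycling in the interaction of the 34 genes was not tested. Mvk, Mvd, Sqle, Lss, Srebf1, Srebf2, Abca1, Acly, Fasn and Scd1 kept their calls under every setting run.

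The libraries of a group differed among themselves mostly in step. WT replicate 2 was the lowest WT library for 26 of the 34 genes and for 16 of the 17 sterol enzymes. DKO replicate 2 was the lowest of its group for 26 genes and 15 sterol enzymes, and Ing1 KO replicate 1 for 22 genes and 13 sterol enzymes. The median coefficient of variation of the 34 genes was 5.78% in the labelled DKO, 6.6% in Ing1 KO, 3.22% in the labelled Gadd45a KO and 8.16% in WT, and the highest were those of Abca1 in Ing1 KO (18%) and Idi1 in WT (17.7%). Summed over the 17 sterol enzymes, levels ran from 789.7 to 882 CPM in the labelled DKO, from 942 to 1069 CPM in Ing1 KO, from 811 to 817 CPM in the labelled Gadd45a KO and from 689 to 819 CPM in WT, so that Ing1 KO stood clear of the other 3 groups. For the 11 fatty acid genes the sum was 2035 to 2249 CPM in the labelled DKO and 2335 to 2416 CPM in Ing1 KO. It was 1964 to 2012 CPM in the labelled Gadd45a KO and 1799 to 1944 CPM in WT. In this sum, which weighs highly expressed genes most, both groups labelled as lacking Ing1 lay above the others. As mean log2 CPM over the 11 genes, the labelled DKO (6.61 to 6.74) overlapped the labelled Gadd45a KO (6.56 to 6.64). On that measure Ing1 KO (6.82 to 6.90) stayed above the other groups, and WT ran from 6.48 to 6.55.

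**Figure D5:**
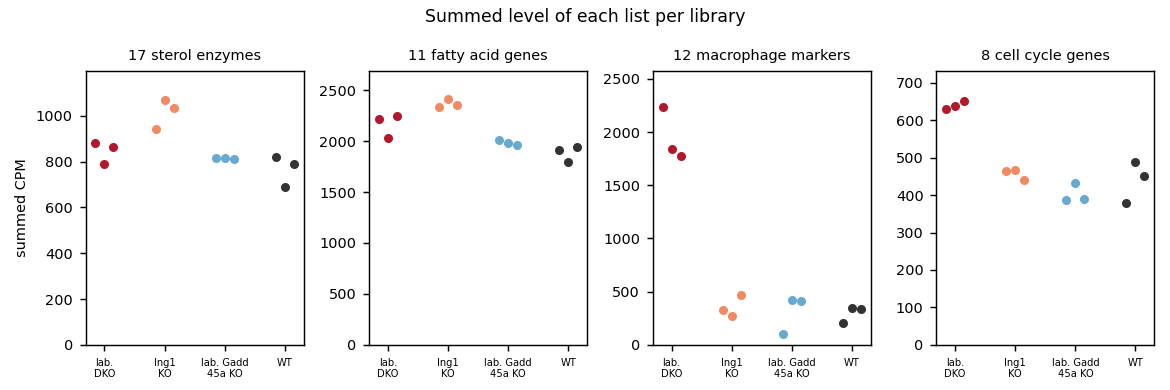
Summed CPM per library (points) of the 17 sterol enzymes, the 11 fatty acid genes, 12 macrophage markers and 8 cell cycle genes; lab. stands for labelled, and each axis starts at 0. The sterol enzymes are highest in Ing1 KO (942 to 1069 CPM), whereas the macrophage markers (1773 to 2237 CPM) and the cell cycle genes (629 to 652 CPM) are highest in the labelled DKO.

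Per kilobase of exon, levels in WT spanned a wide range within the list. Scd2 was by far the highest, at 193 CPM per kilobase in the labelled DKO, 196 in Ing1 KO, 171 in the labelled Gadd45a KO and 161 in WT. Acly and Cyp51 came next in WT with 46.8 and 35.8 CPM per kilobase, followed by Me1 with 34.8 and Fads1 with 27.3. Among the sterol enzymes Cyp51 was highest and Idi1 lowest, with 1.00 CPM per kilobase in WT. Srebf2 was above Srebf1, at 23.8 against 13.7 CPM per kilobase in WT.

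Other genes of the same pathways were followed in 5 further lists. Their counts stand against the shares of all genes called, which were 25.9% in the labelled DKO against WT, 24.8% against Ing1 KO, 26.4% against the labelled Gadd45a KO, 17.8% in the interaction and 23.5% in Ing1 KO against WT. Of 10 genes for sterol synthesis and uptake 6 rose in Ing1 KO relative to WT and none fell. Aacs, which activates acetoacetate, had 93.0, 109 and 104 CPM in Ing1 KO, against 82.9, 66.5 and 74.2 CPM in WT. Its log2 fold change was 0.46 ± 0.08 (SE; edgeR adjusted p = 0.00222). In the labelled DKO 5 of these 10 rose relative to WT, among them Npc1, which moves cholesterol out of lysosomes (0.29 on the log2 scale). Against Ing1 KO, Aacs was among 3 that fell in the labelled DKO (-0.45), and Npc1 was among 2 that rose (0.34). Against the labelled Gadd45a KO 3 rose and none fell, and in the interaction 1 was called above and 4 below 0.

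Of 8 genes for SREBP processing, Rnf139 fell in Ing1 KO relative to WT (-0.23 on the log2 scale) and none rose. In the labelled DKO 2 rose and 1 fell relative to WT, 3 rose relative to Ing1 KO, and 3 rose and 1 fell relative to the labelled Gadd45a KO. With so few genes these counts lie near the shares of all genes called, and nothing is read from them. Insig2, the sister of Insig1, rose by 0.27 in the labelled DKO relative to WT. In the interaction 3 were called above 0.

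Of 6 LXR and efflux genes 1 rose and 2 fell in Ing1 KO relative to WT. Nr1h3, which encodes LXR alpha, had 1.09, 0.867 and 1.39 CPM in Ing1 KO, against 1.91, 2.35 and 2.14 CPM in WT. It fell together with Mylip, an LXR target that marks the LDL receptor for degradation, with log2 fold changes of -0.93 for Nr1h3 and -0.45 for Mylip, whereas Nr1h2, LXR beta, rose by 0.33. In the labelled DKO 3 rose relative to WT, led by Abcg1, another cholesterol exporter (1.26), and Apoe, an apolipoprotein (2.75). Macrophages also express Apoe and Abcg1 at high levels, and the macrophage markers rose in the same libraries. Relative to Ing1 KO 4 rose in the labelled DKO, relative to the labelled Gadd45a KO 2, and in the interaction 3 were called above 0. Of 4 oxysterol and ester genes, Soat1, which esterifies cholesterol, rose in Ing1 KO (0.21), and Soat1 and Ch25h, which makes an oxysterol, rose in the labelled DKO relative to WT (0.42 and 0.98). In the labelled DKO 3 of these 4 rose relative to Ing1 KO and 2 relative to the labelled Gadd45a KO. In the interaction all 4 values were above 0 and 1 was called. Of 17 further fatty acid and glycerolipid genes tested, out of 18, 6 rose and 2 fell in Ing1 KO relative to WT. Slc25a1, the mitochondrial citrate carrier, rose by 0.24, Fads3 rose by 0.45, and Gpam, which starts glycerolipid synthesis, fell with a log2 fold change of -0.32. In the labelled DKO Gpam fell as well relative to WT (-0.31), while 4 rose. The counts called were 2 higher and 2 lower relative to Ing1 KO, and 3 higher and 1 lower relative to the labelled Gadd45a KO. In the interaction 1 was called above and 2 below 0. The numbers called in the labelled DKO, 5 of 17 relative to WT and 4 of 17 relative to either single knockout, were near the shares of all genes called. In the labelled Gadd45a KO none of the genes of these 5 lists was called relative to WT, by edgeR or by DESeq2. Of the 45 tested 6 had an unadjusted p under 0.05 in edgeR, against 1331 of all 15098 genes.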

How the data were processed

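The authors deposited raw read counts for each gene, in a table for each of the 12 libraries, with no normalization. Per the labels' protocols, polyadenylated RNA was made into libraries with the TruSeq v2 kit, a kit without strand marking, and sequenced as single reads of 51 cycles. Per the submitters' processing notes, TopHat2 2.0.9, Bowtie2 2.1.0, HTSeq 0.5.4 and DESeq were used with mm9 (NCBIM37). The sources used here do not give how strand was set in HTSeq. The 5 summary lines of each table were left out of library sizes and held 23.89% to 24.91% of the reads listed.

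Symbols came from reference tables and matched 32919 of 37991 identifiers. Of 121 list genes 120 had an identifier, and Hmgcs1 was not analysed here. Exon lengths behind CPM per kilobase and exon overlaps came from GENCODE M21 (GRCm38), another build than the authors used, so none of its coordinates is printed except for RefSeq promoter windows.

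All tests used edgeR 4.0.16 (R 4.3.3): genes were kept by filterByExpr with a count minimum of 10, scaled by TMM, and fitted with 1 quasi-likelihood model of the 4 groups with 8 residual degrees of freedom. P-values were two-sided, adjusted by Benjamini-Hochberg over 15098 genes and called under 0.05. With 3 libraries per group a permutation test of 1 gene could not go below 0.1, so none was run. DESeq2 1.42.0 was an alternative, as were RLE scaling, no filter, only the groups compared, the replicate number as a block, and leaving out each library. Replicate pairs had a chi-square per degree of freedom of 5.27 to 31.3, where counting error alone gives about 1, so none was merged, and the biological coefficient of variation was 8.17%.

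The replicate numbers were checked for pairing by correlating deviations from group means. Only between the labelled Gadd45a KO and WT did all same-numbered libraries correlate above 0.1 (0.34, 0.11 and 0.13), and there the fit with the replicate block called no member either.

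On simulated counts for Ing1 KO against WT, with 200 of 14958 genes changed, 30% of genes changed 1.25-fold, 70% of those changed 1.5-fold, 80% of those changed 2-fold and 86% of those changed 3-fold were recovered, and 8.28% of calls were false.

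The members and gene lists were chosen with earlier results of these data known. Every member was named. From each further list and comparison up to 3 called genes with the smallest adjusted p could be named, and exceptions are stated. Some genes that this rule would name are not reported here. CPM carry error from counting and between libraries, given as SD.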

Additional observations from a re-analysis of the deposited data

Results flagged for a closer look

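For 17 of the 34 genes the change that came with Ing1 loss differed between the Gadd45a backgrounds, by the interaction test in edgeR (adjusted p under 0.05 over all genes tested). The interaction is on the log2 scale, and a negative value means that the labelled DKO lay lower, relative to the labelled Gadd45a KO, than Ing1 KO did relative to WT.

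Among the mevalonate enzymes it was -0.59 for Mvk, -0.69 for Mvd and -0.36 for Fdps. Between squalene and cholesterol it was -0.38 for Fdft1, -0.44 for Sqle, -0.51 for Lss, -0.32 for Cyp51 and -0.47 for Msmo1. Among the regulators it was -0.33 for Srebf1, -0.44 for Srebf2, -0.28 for Scap and -0.56 for Insig1. For Abca1 it was 1.22, the only positive value among the 17. In the fatty acid arm it was -0.34 for Acly, -0.27 for Acaca, -0.71 for Fasn and -0.47 for Scd1.

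Adjusted p-values from edgeR ran from 0.000914 for Abca1 to 0.0432 for Msmo1. Fdps, Fdft1, Cyp51, Msmo1, Scap, Insig1 and Acaca lost the call under at least 1 other setting. Groups of 3 libraries were too small for a test of single outlying libraries.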

How the results depend on the processing

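No called member reversed its direction under any of the 18 alternative settings. The number of members called was 28 in Ing1 KO against WT and stayed between 22 and 28. It was 11 in the labelled DKO against WT (8 to 14) and 7 against the labelled Gadd45a KO (6 to 9). Against Ing1 KO it was 18, and leaving out 1 library at a time gave 7 to 18. For the interaction it was 17, and leaving out 1 library at a time gave 10 to 18. In the labelled Gadd45a KO against WT it was 0, with 1 by DESeq2 and 0 to 2 when 1 library was left out. Outside these, RLE scaling and DESeq2 gave 22 and 21 for the labelled DKO against Ing1 KO, and 17 and 19 for the interaction. Leaving out a library also leaves a smaller group, and the cause of these differences was not tested.

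With the replicate number as a block in the fit the number of members called was 27 in Ing1 KO against WT, where Sc5d lost its call, 0 in the labelled Gadd45a KO against WT, 11 in the labelled DKO against WT, 19 against Ing1 KO, 8 against the labelled Gadd45a KO and 14 for the interaction. A fit of the labelled Gadd45a KO and WT alone with the block, chosen after seeing the data, called no member. The block moved no count by more than 1.5 times.

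Over all members and settings 2207 of 2448 values kept their direction and side of the threshold, 137 lost a call, 37 gained one and 67 uncalled values changed sign.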
